A study of Rattus norvegicus with 15 samples.

Results

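Excitation-contraction coupling and the calcium store of muscle cells were followed through 10 genes chosen by name: Ryr1, Cacna1s, Cacna1c, Cacnb1, Atp2a1, Atp2a2, Casq1, Casq2, Sln and Trdn. Of these, 9 had a row in the table of 11574 genes, and Atp2a1, the fast-twitch calcium pump SERCA1, had none among the genes analysed here. These genes and the other gene lists below were chosen with earlier results of these data known. Counts of them beside shares of all genes are therefore descriptive. RNA-seq counts came from 15 libraries of H9c2, a wild-type myoblast line derived from embryonic rat heart, with 3 libraries in each of 5 groups. The cell line entry of the labels counts upward over the samples while every title names H9c2, so the titles were used. Cells attached for 24 h, the serum (FBS) was lowered from 10% to 1%, and the +RA groups then received 1 µM all-trans retinoic acid (RA, the vitamin A acid, a ligand of nuclear receptors) every day. T0 is day 0 without RA, T7-RA and T14-RA are days 7 and 14 without RA, and T7+RA and T14+RA are the same days with RA. The study places T0 at 24 h after seeding, when the serum was lowered. Changes against T0 therefore join time in culture with time in low serum, which cannot be told apart. RA was dissolved in DMSO, and whether the -RA cultures received DMSO is not given in the sources used here. The study's methods call the 3 libraries of a group biological replicates. All groups come from the same line, so p-values measure the spread between replicates of this line.

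In striated muscle, an action potential runs along the T tubule and is sensed by the L-type calcium channel, which faces the ryanodine receptor of the sarcoplasmic reticulum across a narrow junction. In skeletal muscle the channel (Cacna1s) opens the receptor (Ryr1) through direct contact, whereas in heart calcium entering through Cacna1c triggers release. Calsequestrins hold calcium inside the store, triadin ties them to the release channel, and SERCA pumps return calcium from the cytosol, held back by small membrane proteins such as sarcolipin and phospholamban.

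The libraries held between 508397 and 1030820 counts, and none stood apart from its group. The T0 libraries were the least alike, with mean correlations of log2 levels within their group of 0.932 to 0.939, beside 0.957 to 0.965 in the other groups. The labels name the tissue as heart. Of 10 cardiomyocyte markers, 2 had a row (Gata4 and Hand2), with a summed level between 11.04 and 38.4 CPM (counts scaled to a common library total) in the 15 libraries, and Myh6, Myh7, Nppa, Nppb, Tnni3, Myl7, Nkx2-5 and Tbx5 had none. Of 10 skeletal muscle markers, 8 had a row. Their summed level was 279 to 313 CPM at T0, 2806 to 3381 in T7-RA, 1511 to 1841 in T7+RA, 10934 to 11489 in T14-RA and 4767 to 5549 in T14+RA. The sum changed with RA by −0.86 on the log2 scale at day 7 and −1.11 at day 14. Most of it came from Myh3 (5056 ± 139 CPM in T14-RA), Acta1 (3258 ± 154) and Tnnt3 (1932 ± 183), and 7 of the 8 means were lower with RA at each day. Mymk, a myoblast fusion protein, held 123 ± 10.4 CPM in T14-RA and 26.6 ± 6.42 in T14+RA. The exception was Myod1 at day 7 and Ckm at day 14. Myod1, a myogenic transcription factor, held 115 ± 40.2 CPM at T0, 87.9 ± 10.2 in T7-RA, 149 ± 12.8 in T7+RA, 80.2 ± 16.0 in T14-RA and 65.0 ± 10.8 in T14+RA. Ckm, muscle creatine kinase, held 63.3 ± 18.9 CPM in T14-RA and 70.8 ± 10.8 in T14+RA. In these bulk samples, fewer muscle-like cells and less RNA per cell cannot be told apart. The sum of the 6 smooth muscle markers was 15642 to 17107 CPM at T0, 4025 to 5527 in T7-RA, 4832 to 5395 in T7+RA, 3531 to 3636 in T14-RA and 4075 to 4853 in T14+RA, and at day 14 the means of 3 of the 6 were higher with RA and 3 lower. The sum of 4 fibroblast markers was 28186 to 28402 CPM in T14-RA and 23128.5 to 29267 in T14+RA, and 2 of these 4 means were lower with RA at day 14 and 2 higher. The sum of 4 proliferation markers was 1086 to 1392 CPM at T0, 839.9 to 928 in T7-RA, 787 to 838 in T7+RA, 405 to 446 in T14-RA and 249.9 to 397 in T14+RA. The part of these lists in the results was not tested.

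The upstream sequences of 4 genes are shown because their levels took different paths: Casq1 and Ryr1 fell with RA at day 14, Casq2 did not pass the test there, and Trdn was higher, past an adjusted p of 0.05 and not 0.001. Each is the 250 bases before the RefSeq start of the gene (build GRCr8), 5′ to 3′ on the gene's strand, and capitals mark E-boxes, the motif CANNTG bound by myogenic bHLH factors. The windows are chr13:87212711-87212960 on the minus strand, chr2:192214306-192214555 on the plus strand, chr1:93551306-93551555 on the minus strand and chr1:26229600-26229849 on the minus strand.
Casq1: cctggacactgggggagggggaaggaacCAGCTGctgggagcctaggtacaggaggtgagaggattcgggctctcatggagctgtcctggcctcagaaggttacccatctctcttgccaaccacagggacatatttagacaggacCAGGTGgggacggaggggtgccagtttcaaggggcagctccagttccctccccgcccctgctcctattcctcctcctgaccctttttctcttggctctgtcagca
Casq2: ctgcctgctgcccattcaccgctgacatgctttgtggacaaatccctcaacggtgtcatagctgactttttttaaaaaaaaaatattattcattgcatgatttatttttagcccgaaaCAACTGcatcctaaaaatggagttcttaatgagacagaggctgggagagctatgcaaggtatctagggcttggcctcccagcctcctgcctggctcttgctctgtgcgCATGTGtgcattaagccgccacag
Ryr1: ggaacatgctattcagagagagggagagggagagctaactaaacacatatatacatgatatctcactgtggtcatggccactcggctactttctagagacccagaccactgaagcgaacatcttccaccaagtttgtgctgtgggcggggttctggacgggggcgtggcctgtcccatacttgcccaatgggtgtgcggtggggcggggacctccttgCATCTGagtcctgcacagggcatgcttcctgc
Trdn: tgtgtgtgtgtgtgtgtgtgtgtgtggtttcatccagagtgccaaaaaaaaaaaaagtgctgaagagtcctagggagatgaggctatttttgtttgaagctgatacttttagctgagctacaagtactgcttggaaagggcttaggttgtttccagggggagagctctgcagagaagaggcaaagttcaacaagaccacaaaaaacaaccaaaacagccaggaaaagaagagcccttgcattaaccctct

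An E-box was present in 65.5% of the 33469 RefSeq windows of this length, the retinoid receptor motif AGGTCA (searched on both strands) in 14.06%, and the MEF2 motif in 1.68%. Casq1 held 2 E-boxes, beginning 222 and 105 bases before its start, and Ryr1 held 1, at 32 bases. Casq2 held 2 E-boxes, at 132 and 24 bases, and a MEF2 match at 149 bases that did not overlap them. None of the 3 motifs occurred in the Trdn window. Of the 10 genes, 8 had an entry, and AGGTCA was found in that of Atp2a1 alone. A match describes letters in this window and is not a binding site.

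Most of the genes rose between day 7 and day 14. Between T7-RA and T14-RA, 8 of 9 genes rose and none fell at an edgeR adjusted p under 0.001, where 1.87% of all genes tested rose, 1.09% fell and 2.95% moved either way. The exception was Cacna1c, the cardiac-type channel. The median log2 change of the 9 genes was 1.90, beside 0.00 over all genes. With RA, between T7+RA and T14+RA, 5 of 9 rose and none fell (2.4% of all genes rose, 2.26% fell and 4.67% moved), with a median of 1.40 beside 0.01. Those 5 were Ryr1, Cacna1c, Cacnb1, Atp2a2 and Trdn, and the other 4 did not pass the test. At an adjusted p under 0.05, Cacna1s (1.53, SE 0.38, edgeR adjusted p = 0.00234) and Sln (2.06, SE 0.66, edgeR adjusted p = 0.0219) were added as higher, where 11.4% of all genes moved. At 0.001 the count was 4 under DESeq2 (3.53% of all genes moved) and limma-voom (4.16%), where Cacna1c lost its call. It was 6 with a replicate block (5.41%), which added Cacna1s. It was 4 to 6 when 1 library was left out, fits for which shares of all genes are not given here. The second week without RA and the comparison with RA at day 14 share the T14-RA libraries, so neither is independent of the other.

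**Figure D1:**
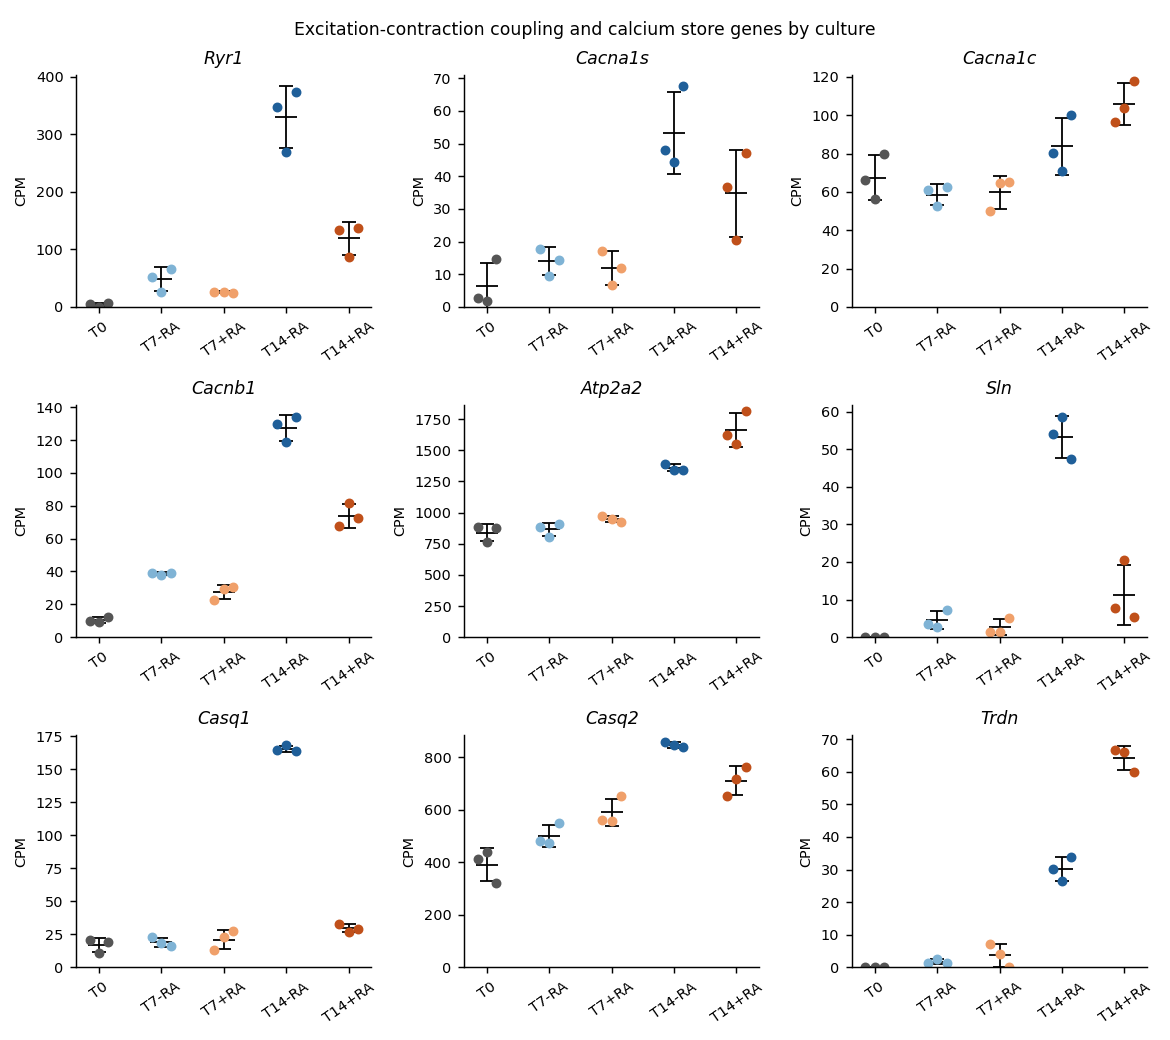
CPM of the 9 genes (y axis, linear, own range per panel) in the 15 libraries by group (x axis). Points are libraries, and the dash and bars are the mean and SD of 3 libraries. Casq1 stands between 164 and 168 CPM in T14-RA and at or below 32.8 CPM in all other groups, and Trdn is highest in T14+RA.

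The counts were fitted to an additive model with a T7 term, a T14 term (both against T0, adjusted for RA) and an RA term shared by both days. In that model, 2 of 9 genes rose by day 7 at an adjusted p under 0.001 (4.29% of all genes rose, 4.44% fell and 8.73% moved), namely Ryr1 and Cacnb1. Casq2, with a T7 term of 0.48 (SE 0.12, edgeR adjusted p = 0.00184), also passed with library size as the only scaling (0.000150) and without T0 replicate 2 (0.000548) or T7-RA replicate 2 (0.000766). In T7+RA against T0 alone, where 10.4% of all genes moved, the calls were Ryr1 and Casq2, and Cacnb1 did not pass (edgeR adjusted p = 0.00155). The log2 change of Casq2 there was 0.58 (SE 0.11, edgeR adjusted p = 2.10e-05). At an adjusted p under 0.05, 5 of 9 rose for the T7 term, where 23.1% of all genes moved. By day 14, 8 of 9 rose and none fell (8.47% of all genes rose, 8.85% fell and 17.3% moved). These include Sln and Trdn, which passed the filter of the table only through their day 14 counts. Against T0, T14-RA alone had a median log2 change of 3.25 over the 9 genes, or 3.15 with Sln and Trdn set to the lower bound that their T0 counts of 0 allow, beside 0.04 over all genes.

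The genes did not share 1 direction with RA. For the RA term, 1 of 9 rose (Trdn) and 3 fell (Ryr1, Cacnb1 and Sln), where 3.33% of all genes rose, 3.07% fell and 6.39% moved either way. Under DESeq2, and without T14-RA replicate 1, T14-RA replicate 3 or T14+RA replicate 1, the calls of Trdn and Cacnb1 were lost, which left 2 falls (Ryr1 and Sln) and no rise. DESeq2 called 5.63% of all genes for this term. At 0.05, 2 rose and 4 fell, where 14.7% of all genes moved. The change at each day came from a model of 5 group means. At day 7 no gene passed an edgeR adjusted p under 0.001, where 3.17% of all genes did (1.87% higher and 1.3% lower), and 2 of 9 had an unadjusted p under 0.05 (Ryr1 and Casq2), as had 17.2% of all genes. DESeq2 and limma-voom also gave 0 at day 7, where they called 2.52% and 2.8% of all genes. At day 14, 4 of 9 fell (Ryr1, Cacnb1, Casq1 and Sln) and none rose, where 2.35% of all genes fell, 2.46% rose and 4.81% moved. At 0.05, Atp2a2 and Trdn were added as higher, and 11.2% of all genes moved. The values of T14+RA and T14-RA did not overlap for 7 of 9 genes, 2 higher and 5 lower with RA, as was so for 27.2% of all genes (13.4% higher and 13.9% lower). At day 7 the values did not overlap for 4 of 9, 2 in each direction, against 24.4% of all genes (11.8% higher and 12.6% lower).

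**Figure D2:**
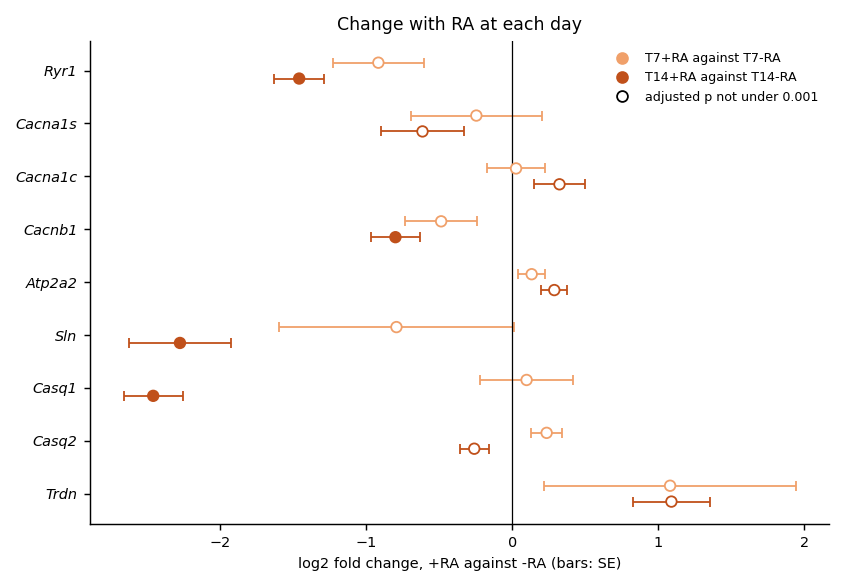
Log2 fold change with RA (x axis) for the 9 genes (y axis) at day 7 and day 14, with bars of 1 SE and filled symbols where the adjusted p was under 0.001. Ryr1, Cacnb1, Sln and Casq1 carry filled symbols left of 0 at day 14, and no symbol is filled at day 7.

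Ryr1 (ENSRNOG00000020557, 1q21), the calcium release channel of skeletal muscle, had few counts at T0 and was high by day 14. The libraries held 5.52, 0 and 6.29 CPM at T0, 52.5, 26.9 and 66.8 in T7-RA and 347, 269 and 374 in T14-RA. With RA they held 25.7, 26.8 and 24.0 CPM at day 7 and 134, 86.4 and 138 at day 14. The order was T0, T7+RA, T7-RA, T14+RA and T14-RA, and at day 7 the lowest library without RA touched the highest with RA (26.9 against 26.8 CPM), while the other steps were free of overlap. Day 14 without RA stood above day 7 by a log2 fold change of 2.77 (SE 0.20, edgeR adjusted p = 6.34e-13), and with RA by 2.23 (SE 0.26, edgeR adjusted p = 6.76e-08). The T0 counts were only 4, 0 and 3, and the ratio of summed counts scaled for library size, T14-RA to T0, was 82.5 (95% interval 39.8 to 206), an interval of counting error only.

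At day 14, Ryr1 fell with RA, with a log2 change of −1.46 (SE 0.17, edgeR adjusted p = 4.44e-08). At day 7 its change was −0.92 (SE 0.31, edgeR adjusted p = 0.0673), which did not pass. The difference between the days was −0.54 (SE 0.37), with an interval of −1.29 to 0.20, so a change of the same size at both days lies within it. The sum of the skeletal muscle markers, carried mostly by Myh3, Acta1 and Tnnt3, changed with RA by −1.11 at day 14 and −0.86 at day 7, and its part in the result was not tested.

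The L-type channel genes behaved unequally. Cacna1s (ENSRNOG00000046231, 13q13) encodes the pore and voltage sensor of the skeletal muscle channel. It held 2.76, 1.88 and 14.7 CPM at T0, 17.9, 9.41 and 14.5 in T7-RA and 48.0, 44.3 and 67.7 in T14-RA. With RA it held 17.1, 6.71 and 11.998 CPM at day 7 and 36.7, 20.4 and 47.1 at day 14. The day 14 libraries were above all day 7 libraries in both conditions, and those with and without RA overlapped at each day. The rise in the second week without RA was 1.90 (SE 0.33, edgeR adjusted p = 2.18e-05), and the adjusted p became 0.00121 without T7-RA replicate 2 and 0.00103 without T14-RA replicate 3. The RA change at day 14 was −0.61 (SE 0.28, edgeR adjusted p = 0.179), with an interval of −1.18 to −0.05, and it did not pass.

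Cacna1c (ENSRNOG00000007090, 4q42), the corresponding subunit of the heart and smooth muscle channel, had a T14 term of 0.39 (SE 0.19, edgeR adjusted p = 0.0974), which did not pass. It held 66.2, 56.3 and 79.7 CPM at T0, 60.8, 52.4 and 62.5 in T7-RA and 49.9, 64.4 and 65.1 in T7+RA, which all overlap. At day 14 it held 80.5, 70.8 and 99.9 CPM without RA and 96.5, 104 and 118 with RA, also overlapping. Its rise in the second week with RA, 0.81 (SE 0.18, edgeR adjusted p = 0.000892), passed narrowly and lost that call in 12 of 15 fits that left out 1 library, with adjusted p up to 0.0209 without T7+RA replicate 1, and under DESeq2 (0.00596) and limma-voom (0.00138). Without RA the change was 0.51 (SE 0.19, edgeR adjusted p = 0.0891).

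Cacnb1 (ENSRNOG00000004518, 10q31), the cytoplasmic beta subunit that brings the skeletal channel to the membrane, rose in both weeks without RA. It held 9.66, 9.38 and 12.6 CPM at T0, 39.4, 37.6 and 39.2 in T7-RA and 129.7, 119 and 134 in T14-RA. With RA it held 22.8, 29.5 and 30.9 CPM at day 7 and 67.5, 81.7 and 72.5 at day 14. The T7 term was 1.97 (SE 0.30, edgeR adjusted p = 8.27e-07), and the second week added 1.71 (SE 0.19, edgeR adjusted p = 9.16e-11) without RA and 1.40 (SE 0.22, edgeR adjusted p = 1.63e-06) with RA. None of the 5 groups overlapped, in the order T0, T7+RA, T7-RA, T14+RA and T14-RA, the same order as Ryr1. The change with RA was −0.80 (SE 0.17, edgeR adjusted p = 0.000353) at day 14 and −0.49 (SE 0.25, edgeR adjusted p = 0.299) at day 7. The day 14 call was lost under DESeq2 (adjusted p = 0.00799) and without T14-RA replicate 1, T14-RA replicate 3, T14+RA replicate 1 or T14+RA replicate 3, with adjusted p up to 0.0127. Its RA term was −0.70 (SE 0.14, edgeR adjusted p = 0.000129), a call lost under DESeq2 (adjusted p = 0.00136) and without T14-RA replicate 1, T14-RA replicate 3 or T14+RA replicate 1 (up to 0.00295).

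Atp2a2 (ENSRNOG00000001285, 12q16), the SERCA2 pump of slow and cardiac muscle and of many other cells, held the most counts of the 9 genes. It held 881, 759.8 and 876 CPM at T0, 880.4, 808 and 906 in T7-RA and 974, 950.4 and 920.4 in T7+RA. At day 14 it held 1392, 1344 and 1341 CPM without RA and 1625, 1548 and 1813 with RA. T0 overlapped T7-RA, and the 3 libraries with RA lay above those without RA at both days. The second week added 0.65 (SE 0.0909, edgeR adjusted p = 1.21e-07) without RA and 0.81 (SE 0.0903, edgeR adjusted p = 1.75e-10) with RA. With RA it changed by 0.29 (SE 0.0889, edgeR adjusted p = 0.0218) at day 14, past 0.05 and not past 0.001, and its change at day 7 was 0.13 (SE 0.0918, edgeR adjusted p = 0.520).

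Sln (ENSRNOG00000009047, 8q24), sarcolipin, a small inhibitor of SERCA pumps, had no count in the 3 T0 libraries, which allows up to 5.35 CPM on average at 3 counts per library. Its level was 3.58, 2.69 and 7.26 CPM in T7-RA and 1.43, 1.34 and 5.14 in T7+RA, on 10 and 5 counts in all. At day 14 it was 54.1, 58.4 and 47.4 CPM without RA and 7.72, 20.4 and 5.44 with RA. The day 7 groups overlapped each other, and the lower T14+RA libraries lay at the level of day 7, while T14-RA stood above all others. T14-RA was at least 9.96-fold higher than T0, and T14+RA at least 2.09-fold higher, against that floor. T14+RA replicate 3 held 3 counts, the floor itself, and replicate 2 held 20.4 CPM, so the T14+RA bound rests mostly on 1 library. The ratio of T14-RA to T7-RA was 12.1 (95% interval 6.33 to 26.0). Sln fell with RA at day 14, with a log2 change of −2.27 (SE 0.35, edgeR adjusted p = 5.73e-07). At day 7 the ratio of T7+RA to T7-RA was 0.559 (95% interval 0.150 to 1.80), and the test did not pass at these counts (edgeR adjusted p = 0.702).

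Casq1 (ENSRNOG00000006930, 13q24), the calsequestrin of fast skeletal muscle, rose in the second week without RA, and its change with RA in that week did not pass the test. The libraries held 20.7, 11.3 and 18.9 CPM at T0, 22.7, 18.8 and 16.0 in T7-RA and 12.8, 22.8 and 27.4 in T7+RA. At day 14 they held 165, 168 and 164 CPM without RA and 32.8, 26.7 and 29.0 with RA. The T0 and day 7 libraries overlapped, T14+RA overlapped T7+RA, and T14-RA lay above all of them. Day 14 was above day 7 by 3.09 (SE 0.22, edgeR adjusted p = 1.74e-18) without RA and by 0.53 (SE 0.29, edgeR adjusted p = 0.280) with RA.

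The RA change of Casq1 was 0.10 (SE 0.32, edgeR adjusted p = 0.935) at day 7 and −2.46 (SE 0.20, edgeR adjusted p = 6.97e-16) at day 14. The difference between these changes was −2.56 (SE 0.39, edgeR adjusted p = 8.98e-06). Casq1 alone of the 9 genes had an RA change that differed between the days at an adjusted p under 0.05, where 0.743% of all genes did (0.285% toward higher and 0.458% toward lower values at day 14). The difference stayed between −2.82 and −2.35 in the 15 fits that left out 1 library, with adjusted p up to 0.000801. The additive model shares 1 RA change between the days, and its RA term for Casq1 was −1.73 (SE 0.34, edgeR adjusted p = 0.00281), which did not pass 0.001. It passed with limma-voom (−1.84, adjusted p = 2.32e-07) and without T7-RA replicate 3 (0.000915), T7+RA replicate 2 (4.85e-05) or T7+RA replicate 3 (2.33e-06). Its T14 term was 3.04 (SE 0.48, edgeR adjusted p = 0.000182), and that call was lost when T0 replicate 1, 2 or 3 was left out (adjusted p up to 0.00180). The same marker sum changed with RA by −0.86 at day 7 and −1.11 at day 14, and 7 of its 8 genes had lower means with RA at each day. The part of these genes in the Casq1 values was not tested.

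Casq2 (ENSRNOG00000016243, 2q34), the calsequestrin of heart and slow muscle, stood above Casq1 per kilobase in every group. It held 411, 441 and 323 CPM at T0, 481, 473 and 549 in T7-RA and 859, 847 and 838 in T14-RA. With RA it held 563, 557 and 651 CPM at day 7 and 653, 717 and 763 at day 14. The +RA libraries lay above the -RA libraries at day 7 and below them at day 14, without overlap at either day. With RA it changed by 0.24 (SE 0.10, edgeR adjusted p = 0.199) at day 7 and −0.26 (SE 0.10, edgeR adjusted p = 0.0872) at day 14, and neither passed. The difference between the days was −0.50 (SE 0.14, edgeR adjusted p = 0.102), and it passed 0.05 without T0 replicate 2, T0 replicate 3 or T14+RA replicate 3 (adjusted p down to 0.0291). The second week raised Casq2 by 0.76 (SE 0.10, edgeR adjusted p = 4.35e-08) without RA, and with RA its change was 0.27 (SE 0.10, edgeR adjusted p = 0.0841).

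**Figure D3:**
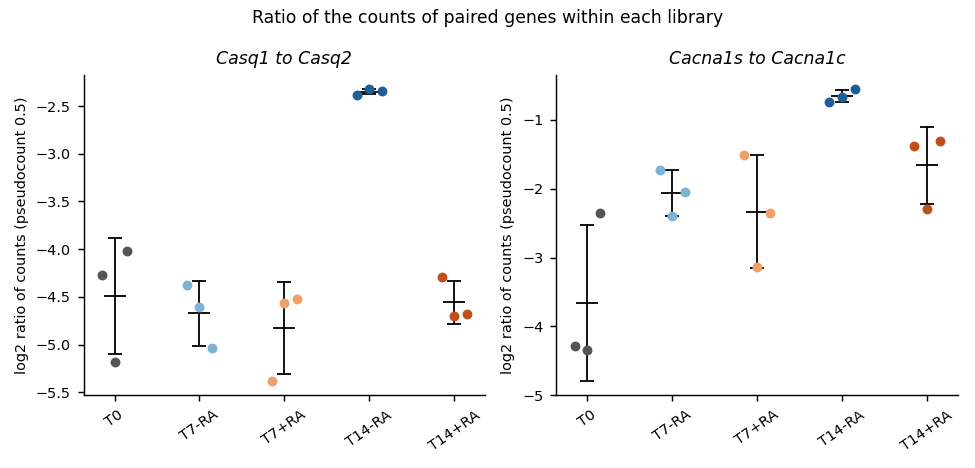
Log2 ratio of counts (y axis, pseudocount 0.5) of Casq1 to Casq2 and of Cacna1s to Cacna1c in the 15 libraries by group (x axis), with the mean and SD of 3 libraries. The T14-RA libraries hold the highest ratios in both panels, and the Casq1 to Casq2 ratio of T14+RA lies in the range of T0 and day 7.

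The balance of skeletal to cardiac forms was taken as the log2 ratio of counts within a library, which compares changes and not molar levels. For Casq1 to Casq2, the T14-RA libraries had −2.38, −2.32 and −2.35 and the T14+RA libraries −4.30, −4.71 and −4.67. T0 had a mean of −4.49 ± 0.61 (SD, n = 3), beside −4.67 ± 0.34 for T7-RA and −4.83 ± 0.48 for T7+RA. T14-RA stood alone, and the other 4 groups overlapped. For Cacna1s to Cacna1c, the T14-RA libraries had −0.74, −0.67 and −0.55 and the T14+RA libraries −1.38, −2.30 and −1.31, also without overlap, while the day 7 groups overlapped. Averaged over both days, RA changed Casq1 to Casq2 by −1.18 (exact permutation test within days, two-sided, p = 0.035, adjusted over the 2 ratios 0.07) and Cacna1s to Cacna1c by −0.64 (exact p = 0.07, adjusted 0.07). Neither passed after adjustment, and the smallest p this test allows is 0.005. For Casq1 to Casq2 the average describes neither day, since the day 14 means were −2.35 without RA and −4.56 with RA, while the day 7 groups overlapped. The test does not address day 14 alone.

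Trdn (ENSRNOG00000012609, 1p11), triadin, which anchors calsequestrin at the release channel, rose late in both conditions and was highest with RA. It had no count in the 3 T0 libraries. Counts at day 7 were 1, 2 and 1 in T7-RA and 5, 3 and 0 in T7+RA. At day 14 the level was 30.0, 26.6 and 33.9 CPM without RA and 66.6, 66.0 and 59.8 with RA. The T14+RA libraries all exceeded the T14-RA libraries, which all exceeded those of day 7. Against the floor of 3 counts per library at T0, T14-RA was at least 5.63-fold and T14+RA at least 11.98-fold higher. The ratio to day 7 was 17.1 (95% interval 6.36 to 64.9) without RA and 16.4 (95% interval 8.12 to 38.8) with RA.

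With RA, Trdn at day 14 changed by 1.09 (SE 0.26, edgeR adjusted p = 0.00189), past 0.05 and not past 0.001. It passed 0.001 without T0 replicate 2 (0.000641) or T0 replicate 3 (0.000869). The RA term of the additive model was 1.09 (SE 0.25, edgeR adjusted p = 0.000827). That call was lost in 10 of 15 fits that left out 1 library (adjusted p up to 0.00724 without T14+RA replicate 1), under DESeq2 (0.00860) and with library size as the only scaling (0.00104), while the change stayed between 1.03 and 1.16. Trdn lay higher with RA at day 14, where Ryr1, Cacnb1, Casq1, Sln and the summed skeletal muscle markers lay lower.

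**Figure D4:**
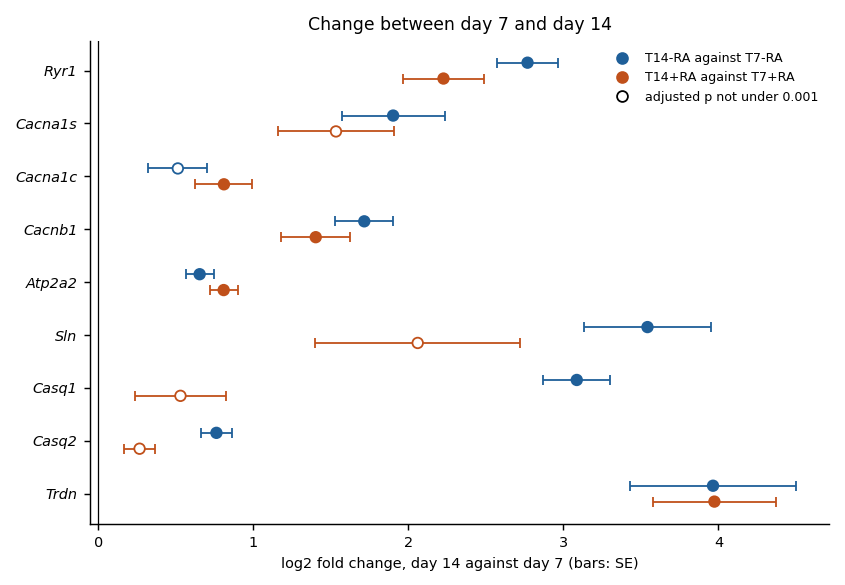
Log2 fold change of day 14 against day 7 (x axis) for the 9 genes (y axis) without RA and with RA, with bars of 1 SE and filled symbols where the adjusted p was under 0.001. All 18 symbols lie right of 0, and Casq1 shows the widest gap between the conditions.

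Levels between genes were compared per kilobase of the length given in the table. At T0 the highest levels per kilobase were 155 ± 24.3 CPM for Casq2 and 151 ± 12.4 for Atp2a2, which lay within their spread, followed by 9.19 ± 2.71 for Casq1 and 8.98 ± 1.56 for Cacna1c, also within their spread. In T14-RA the order was 335 ± 4.10 for Casq2, 245 ± 5.15 for Atp2a2, 179 ± 18.6 for Sln, 89.9 ± 1.21 for Casq1, 39.0 ± 2.40 for Cacnb1 and 22.0 ± 3.63 for Ryr1. Cacna1c, Cacna1s and Trdn closed the order with 11.2 ± 1.97, 9.61 ± 2.27 and 7.11 ± 0.861 CPM per kilobase, and each neighbouring pair of these 3 lay within its spread. In T14+RA, Atp2a2 (299 ± 24.5) and Casq2 (281 ± 21.9) again led within their spread, and Trdn reached 15.1 ± 0.881, beside 16.0 ± 1.67 for Casq1 and 7.94 ± 1.90 for Ryr1. The Sln length of 298 bases is short, so its level per kilobase rests on few counts.

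The gene profiles most like each member were found by the root mean square difference of centred log2 CPM means over the 5 groups, among 8379 genes with a mean count of at least 10. Nearest to Ryr1 were Tnni2 (0.271), Myom2 (0.300) and Neb (0.301). Cacna1s lay near Myom1 (0.116), Hjv (0.168) and Tmem38b (0.171), and Cacnb1 near Rbm39 (0.183), Srpk3 (0.184) and Cacna1s (0.190). The nearest to Casq1 were Bcam (0.407), Klhl41 (0.409) and Pgam2 (0.465), and the nearest to Trdn were Dcn (0.350), Ckm (0.483) and Cox6a2 (0.505). For the nearest gene, Casq1 and Trdn had the 2 largest differences of the 9. All points come from the same 15 libraries. Sln was nearest to AABR07005775.1 (0.241), Pgam2 (0.259) and Mb (0.386). Cacna1c, Atp2a2 and Casq2, whose profiles are flatter, were nearest to Mknk1 (0.0441), Lamtor1 (0.0348) and Hspb2 (0.0558).

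Of 78 other calcium handling genes listed by role, 52 had a single row in the table. For the T14 term 15 of 52 rose and 9 fell, where 8.47% of all genes rose and 8.85% fell. For the T7 term 10 rose and 4 fell (4.29% and 4.44% of all genes), and 8 were called in all without T0 replicate 1, a fit for which the share of all genes is not given here. For the RA term 3 rose and 7 fell (3.33% and 3.07% of all genes), and for RA at day 14 alone 3 rose and 8 fell (2.46% and 2.35% of all genes). Set against T0 alone, 9 of 52 moved in T7-RA (8.78% of all genes) and 8 in T7+RA (10.4% of all genes). The median log2 change was 0.34 for T14 and −0.16 for RA, beside 0.05 and −0.01 over all genes. By role, with the same T14 shares over all genes, the calls were 6 up and 2 down of 12 junction and T tubule genes, 3 up of 8 channel subunits, 2 up of 7 pumps and exchangers, 2 up and 3 down of 8 luminal proteins, 3 down of 4 release channel genes, 2 up and 1 down of 6 sensors and kinases, and none among the store-operated entry genes (6) and pump regulators (1).

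Among release channel genes, Ryr2, the cardiac receptor, had no row. Itpr1, an inositol trisphosphate receptor, fell by day 14 with a T14 term of −0.71 (SE 0.15, edgeR adjusted p = 0.000111), a call lost without T0 replicate 1 (adjusted p = 0.0107) or T0 replicate 3 (0.00120). Itpr3, a related receptor, fell with RA, with an RA term of −0.84 (SE 0.12, edgeR adjusted p = 1.06e-07). Fkbp1a, which encodes a ryanodine receptor partner, fell by day 14, with a T14 term of −0.51 (SE 0.12, edgeR adjusted p = 0.000301). That call was lost without T0 replicate 1, T0 replicate 2 or any 1 of the 3 T14-RA libraries (up to 0.00291) and with library size as the only scaling (0.00411). It rose with RA, with an RA term of 0.59 (SE 0.0860, edgeR adjusted p = 2.24e-07). These 3 genes encode proteins used by many cell types.

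At the junction, Bin1, which shapes T tubules, rose by day 14, with a T14 term of 2.00 (SE 0.15, edgeR adjusted p = 1.89e-17). Jph2, a junctophilin that holds the junction together, started from 113 ± 21.9 CPM at T0. Without RA it held 55.4 ± 9.03 CPM at day 7 and 76.4 ± 1.75 at day 14. With RA it held 84.7 ± 22.2 CPM at day 7 and 61.5 ± 1.54 at day 14. Against T0 alone, T7-RA fell with a log2 change of −1.03 (SE 0.19, edgeR adjusted p = 2.60e-05), and the change in T14-RA, −0.57 (SE 0.19, edgeR adjusted p = 0.0122), did not pass. The T14 term, fitted over both day 14 groups, was −0.81 (SE 0.19, edgeR adjusted p = 0.000645). That call was lost in 8 of 15 fits that left out 1 library (adjusted p up to 0.0150 without T0 replicate 1), under DESeq2 (0.00399) and limma-voom (0.00163), and with library size as the only scaling (0.00269). Its RA term was 0.16 (SE 0.15, edgeR adjusted p = 0.589), and its change with RA was 0.62 (SE 0.19, edgeR adjusted p = 0.0345) at day 7 and −0.31 (SE 0.20, edgeR adjusted p = 0.393) at day 14. Both TRIC channel genes, which encode potassium channels of the store, rose with time and parted with RA. Tmem38a (TRIC-A, the muscle form) held 51.0 ± 10.3 CPM in T7-RA and 178 ± 29.6 in T7+RA, then 150.4 ± 8.16 in T14-RA and 273 ± 19.8 in T14+RA. Its RA change was 1.78 (SE 0.17, edgeR adjusted p = 2.74e-13) at day 7 and 0.85 (SE 0.13, edgeR adjusted p = 1.41e-06) at day 14. Tmem38b (TRIC-B) had a T14 term of 3.07 (SE 0.27, edgeR adjusted p = 1.12e-13), and it held 149 ± 7.03 CPM in T14-RA and 68.2 ± 10.1 in T14+RA, a change of −1.14 (SE 0.19, edgeR adjusted p = 3.45e-06). Dysf, the membrane repair protein dysferlin, rose with RA, with an RA term of 0.68 (SE 0.0832, edgeR adjusted p = 2.58e-09).

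Stac3, an adaptor that the skeletal channel needs to reach and open the release channel, was named after its values were seen. It held 56.8 ± 5.17 CPM in T14-RA and 9.06 ± 0.374 in T14+RA, a change of −2.63 (SE 0.32, edgeR adjusted p = 1.34e-09), and at day 7 the change was −0.66 (SE 0.42, edgeR adjusted p = 0.457). Cacng1, the gamma subunit of the skeletal channel, held 44.0 to 49.2 CPM in T14-RA and 1.57 to 3.63 in T14+RA. Its 5 counts in T14+RA against 93 in T14-RA gave a ratio of 0.0480 (95% interval 0.0152 to 0.116), and 3 counts in T7+RA against 38 in T7-RA a ratio of 0.0883 (95% interval 0.0174 to 0.278). Cacna2d1, the extracellular subunit, rose by day 14, with a T14 term of 1.48 (SE 0.20, edgeR adjusted p = 1.38e-07).

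**Figure D5:**
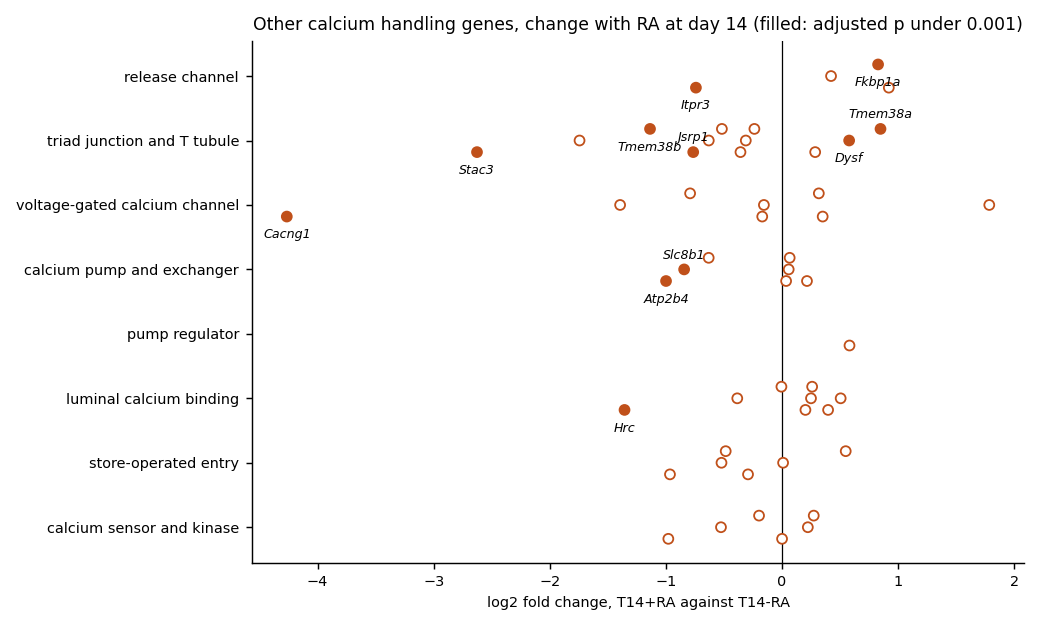
Log2 fold change of T14+RA against T14-RA (x axis) for 52 other calcium handling genes by role (y axis), filled and named where the adjusted p was under 0.001. The 8 filled symbols left of 0 include Cacng1, Stac3 and Hrc, and the 3 right of 0 are Tmem38a, Fkbp1a and Dysf.

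Of the transporters, Atp2b4, a calcium pump of the plasma membrane, rose by day 14 with a T14 term of 0.96 (SE 0.17, edgeR adjusted p = 5.27e-06). It fell with RA, with an RA term of −1.09 (SE 0.13, edgeR adjusted p = 3.40e-10). Slc8b1, the sodium-calcium exchanger of mitochondria, likewise rose by day 14, with a T14 term of 1.71 (SE 0.19, edgeR adjusted p = 1.21e-10), and its RA term was −0.81 (SE 0.13, edgeR adjusted p = 1.78e-06). Pln, phospholamban, which restrains SERCA2, was low. It held 1.34 to 4.36 CPM in T7-RA and 10.7 to 15.7 in T7+RA, without overlap, on 6 counts against 27, and the test did not pass 0.001 (edgeR adjusted p = 0.00904). At day 14 it held 3.39 to 17.7 CPM without RA and 10.9 to 20.3 with RA.

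Inside the store, Hrc, a histidine-rich calcium binding protein that contacts triadin, held 4.10 ± 2.21 CPM at T0, 171 ± 32.6 in T14-RA and 66.1 ± 3.95 in T14+RA. The T14-RA to T0 ratio was 42.0 (95% interval 20.2 to 105), and Hrc fell with RA, with an RA term of −1.30 (SE 0.15, edgeR adjusted p = 1.59e-10). Srl, sarcalumenin, had a T14-RA to T0 ratio of 28.8 (95% interval 9.57 to 142), on 3 counts at T0, and an RA term of −0.34 (SE 0.20, edgeR adjusted p = 0.315). Among sensors and kinases, Camk2a, a calmodulin-dependent kinase, had 3 counts at T0 and 43 in T14-RA, a ratio of 12.5 (95% interval 4.00 to 63.0).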

How the data were processed

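RNA-seq counts of 15 H9c2 libraries were analysed, 3 in each of 5 groups taken from the labels. Per the labels and the study's methods, the authors trimmed the reads, mapped them with HISAT2 to Rnor_6.0 (named in the submitters' processing notes), counted them with featureCounts and deposited the raw counts of each gene, not normalized, for genes summing to more than 20 counts (smallest sum 21). Tool versions, annotation release and strand setting of the counting are not given in the sources used here, so genes that overlap or share sequence carry an uncertainty.

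Counts of 11574 genes were scaled by TMM and fitted with edgeR 4.0.16 in R 4.3.3 (robust quasi-likelihood F test, common dispersion 0.00962), with Benjamini-Hochberg adjustment over all genes. The study used limma, which was run as limma-voom (limma 3.58.1). The additive formula (T7, T14, RA) and the threshold of 0.001 follow the study, and the difference between days was called at 0.05. Fold changes are on the log2 scale. CPM values use TMM library sizes. A fold against a group without counts is a bound computed at 3 counts per library. Intervals of count ratios and floors cover counting error only. Log2 ratios used a pseudocount of 0.5. The planned Atp2a1 to Atp2a2 ratio was not run, since Atp2a1 had no row.

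The members and gene lists were chosen with earlier results of these data known. Of the other pathway genes, Ryr2, Pln and Jph2 were named in any case, and otherwise the 2 with the lowest T14 p and the 2 with the lowest RA p per role among those called, of which 1 is not reported here. Stac3 lies outside this rule and was named after its values were seen. Calm2, with 2 rows, was left out. Promoter windows come from RefSeq on GRCr8, another build than that of the counts, and 8 of 10 members matched. Alternatives were DESeq2 1.42.0, limma-voom, 2 other scalings (relative log expression, library size only), the filterByExpr filter, an adjusted p of 0.05, a replicate block, a pseudocount of 1 and each library left out. Contrasts of single groups with T0 were added after seeing the data. The calling was also run on simulated counts, and the outcome is not given here. Replicate libraries differed by a chi-square of at least 1.07 per gene (p = 9.20e-08), so all 15 were kept. The value was 1.96 to 2.77 for the T0 pairs and up to 1.86 for T14+RA, beside at most 1.47 in the other groups. Deviations of libraries with the same replicate number had a mean correlation of 0.032 (−0.039 to 0.186), beside −0.016 (−0.157 to 0.084) for different numbers. The numbers were not taken to pair libraries. A replicate block gave more calls over all genes, such as 429 in place of 367 for RA at day 7. Whether the numbers mark shared cultures was not tested.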

Additional observations from a re-analysis of the deposited data

Results flagged for a closer look

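Casq1 changed with RA by 0.10 at day 7 and by −2.46 at day 14, and the difference of −2.56 (SE 0.39, edgeR adjusted p = 8.98e-06) passed the test of the difference between the days. Tmem38a, named among the other calcium handling genes, changed with RA by 1.78 at day 7 and by 0.85 at day 14, and the difference of −0.93 (SE 0.22, edgeR adjusted p = 0.0153) also passed at 0.05. The Tmem38a call was lost without T7-RA replicate 2 (adjusted p = 0.134), T14-RA replicate 1 (0.0656), T7+RA replicate 3 (0.122) or T14+RA replicate 1 (0.0596).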

How the results depend on the processing

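Changes of the 9 genes kept their direction under every alternative except in changes that did not pass a test. The Cacna1c change with RA at day 7 was −0.00297 with library size as the only scaling. The Atp2a2 T7 term was −0.00367 with relative log expression size factors, −0.00829 with edgeR's filter by group (2398 genes removed, all 9 members kept) and −0.00467 with DESeq2. Over the fits that left out 1 library, the ranges that crossed 0 were −0.62 to 0.068 (Cacna1s), −0.046 to 0.14 (Cacna1c) and −0.11 to 0.36 (Casq1) for RA at day 7, −0.68 to 0.0097 (Cacna1s) and −0.47 to 0.77 (Trdn) for the difference between days, −0.056 to 0.051 for the Atp2a2 T7 term and −0.076 to 0.040 for the Casq2 RA term. Of the other genes named, the RA term of Jph2, which did not pass, ranged from −0.016 (without T7+RA replicate 2) to 0.24 over the fits that left out 1 library.

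At an adjusted p of 0.05, 5 members rose for the T7 term, and 30 of the 52 other genes moved for T7 and 22 for RA, beside 23.1% and 14.7% of all genes. DESeq2 called 2 members for the RA term, where it called 5.63% of all genes. Against T0 alone, 9 other genes moved in T7-RA and 8 in T7+RA. Leaving out 1 library, for which shares of all genes are not given here, gave 2 to 5 members called for the RA term (2 without T14-RA replicate 1, T14-RA replicate 3 or T14+RA replicate 1), 1 to 2 for the difference between days (2 without T0 replicate 2, T0 replicate 3 or T14+RA replicate 3) and 8 to 14 other genes for T7 (8 without T0 replicate 1). The RA change of the log2 ratio was −1.27 to −1.04 for Casq1 to Casq2 and −0.85 to −0.44 for Cacna1s to Cacna1c, whose exact adjusted p was 0.03 without T7+RA replicate 1. The cause of these differences was not tested.

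A replicate block gave 2 members for the difference between days, Casq1 and Casq2 (edgeR adjusted p = 0.0372), where it called 1.02% of all genes in place of 0.743%. It also ended the T14 call of Casq1 (0.00120), added the call of Cacna1s for the second week with RA (0.000857) and changed no other call of the 9 genes. Over all genes it gave 2088 calls in place of 2004 for T14 and 797 in place of 740 for RA. In ratios, sign flips of the pairs gave an exact adjusted p of 0.125 for both. Library size as the only scaling moved the median of all genes to 0.13 (T7) and 0.15 (T14), with 648 higher and 358 lower in place of 496 and 514 for T7, and 1221 and 844 in place of 980 and 1024 for T14. Depth limits Sln and Trdn at T0 and day 7, where a library held at most 5 counts, and Ryr1 at T0, where a library held at most 4.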
